A study of Mus musculus with 14 samples.

Results

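The 10 integrin subunit genes described here were the alpha chains Itga4, Itga5, Itga6, Itga9, Itgav, Itgal and Itgam and the beta chains Itgb1, Itgb2 and Itgb7. They were picked by name as subunits of niche and leukocyte adhesion, from 27 integrin subunit genes and 48714 gene labels listed in every library. Each of the 10 had 1 label in the files. All 10 passed the filter on low values, a mean of 1 RPKM or more (reads divided by gene length and by the size of the library), which 9921 labels passed in all.

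An integrin is a pair of an alpha and a beta chain that spans the plasma membrane, binds matrix or a counter-receptor outside the cell and couples to the actin cytoskeleton inside it. In the bone marrow, alpha4 beta1 (VLA-4) binds VCAM-1 and fibronectin, alpha5 beta1 (VLA-5) binds fibronectin and alpha6 beta1 binds laminin, and these pairs take part in the homing and retention of haematopoietic stem cells (HSCs). The leukocyte integrins LFA-1 (Itgal with Itgb2) and Mac-1 (Itgam with Itgb2) bind ICAMs, Itga4 with Itgb7 binds MAdCAM-1, and Mac-1 is a classical surface marker of mature myeloid cells.

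HSCs from the bone marrow of C57BL/6 mice were sorted by calcium into [Ca2+]high cells, here calcium-high, and [Ca2+]low cells, here calcium-low. Total RNA of 100 such cells went into each library, with 7 libraries per group numbered 1 to 7. No treatment, genetic change or age is named for either group, nor are the gate that defined an HSC and the way calcium was read. Whether libraries came from separate animals is not stated, so p-values measure only the spread between these samples, which may be technical. The series title sets this against dormant and active HSCs.

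Depth was 3575096 to 7387301 reads in genes for replicates 1 to 3 and 8280462 to 10295713 for replicates 4 to 7. The labels name no batch, but the samples are listed in these 2 runs, called library sets here. Reads of 4 Y-linked genes numbered 1298 to 1638 per library in replicates 1 and 2 of both calcium groups and 0 to 4 in replicates 3 to 7. Replicates 1 and 2 thus held cells of male animals, and replicates 3 to 7 at most a trace of them. Whether libraries on the same side of that split came from separate animals is not stated. All 14 HSC markers examined had a mean of 1 RPKM or more, and their summed level was 230 to 435 RPKM in calcium-high and 228 to 334 in calcium-low libraries. At every replicate number the calcium-high library had the higher sum, with 348 to 435 against 265 to 309 RPKM in replicates 4 to 7. The lowest sum of each group was that of replicate 3. Calcium-low replicate 3 stood apart, with 773 RPKM over 14 neutrophil markers against at most 106 in any other library. It also had 369 RPKM over 14 erythroid markers against at most 237 in any other library. Calcium-high replicates 5 and 6 had 194 and 158 RPKM over 14 monocyte and macrophage markers against 43.9 to 83.3 elsewhere. The B cell markers Ms4a1, Ighm and Igkc and the T and natural killer cell markers Cd3e, Cd3g, Trac_1, Trbc2 and Ncr1 were at 0 in every library.

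Among the 10 subunits, the chains of the fibronectin, VCAM-1 and laminin receptors had the highest levels in these HSCs. Over the 14 libraries the level per length was 12.8 ± 5.30 RPKM (mean, SD, n = 14) for Itgb1, the beta chain of those receptors. Itga6 followed at 10.9 ± 2.35, Itga4 at 10.1 ± 3.28 and Itga5 at 6.87 ± 1.90 RPKM. These means lay at percentiles 87.7 (Itgb1), 84.6 (Itga6), 82.7 (Itga4) and 71.0 (Itga5) of the tested genes. Itgb2, the beta chain of the leukocyte integrins, was in the middle of the tested genes at 4.40 ± 0.828 RPKM (percentile 53.1). A lower tier held Itgav at 2.30 ± 0.370, Itgal at 2.12 ± 1.29, Itgb7 at 1.65 ± 0.742, Itgam at 1.63 ± 0.818 and Itga9 at 1.08 ± 0.369 RPKM. Neighbours at the top of this order did not separate beyond their spread: Itgb1 exceeded Itga6 in 9 of 14 libraries, Itga6 exceeded Itga4 in 10 and Itga4 exceeded Itga5 in 10. The step from Itga5 to Itgb2 held in 13 of 14 libraries and that from Itgb2 to Itgav in all 14. Itgav exceeded Itgal, Itgal exceeded Itgb7 and Itgb7 exceeded Itgam in 7 of 14 libraries each, and Itgam exceeded Itga9 in 10. The order differed between the library sets: Itgav exceeded Itgal in 6 of 6 libraries of replicates 1 to 3 and in 1 of 8 of replicates 4 to 7, and Itga4 exceeded Itga5 in 6 of 6 and in 4 of 8.

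**Figure D1:**
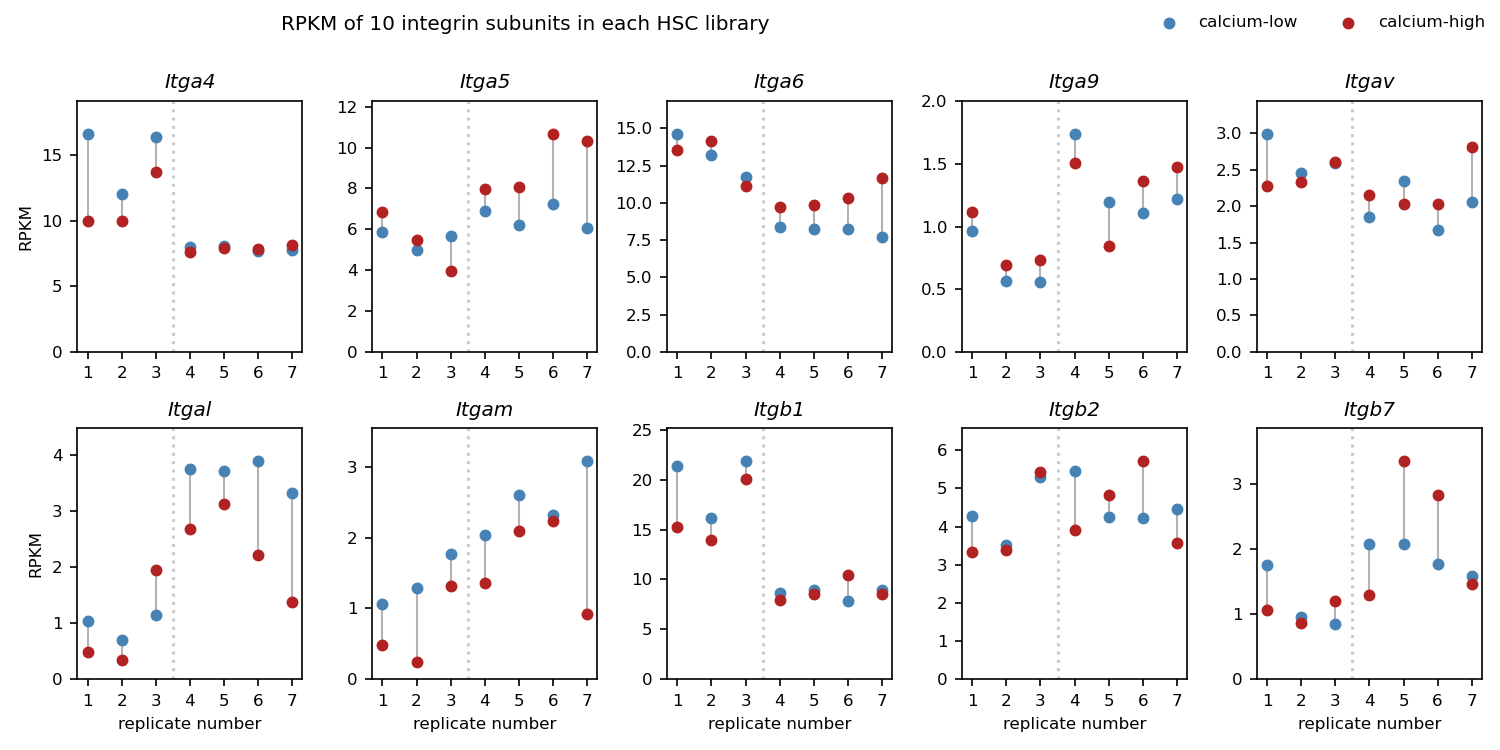
RPKM of each of the 10 integrin subunits (y axis, from 0) in the 14 HSC libraries by replicate number (x axis), calcium-high in red and calcium-low in blue, with a grey line joining libraries of the same number and a dotted line between replicates 3 and 4. Itga4 and Itgb1 are higher in replicates 1 to 3 than in replicates 4 to 7 in both calcium groups, and Itgam is lower in the calcium-high library of all 7 pairs.

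For 4 subunits that the results turn on, the 250 bases before the transcript start were taken from the RefSeq promoter table (GRCm38.p6), which matched 7 of the 10 members. Itga4 and Itgb1 are shown because their levels split the libraries in the same way, and Itga5 and Itgam because they had the largest positive and the largest negative calcium difference of the 10. Capitals mark, on either strand, GGGCGG, the GC box, which reads CCGCCC on the other strand, and GAGGAA, the core of sites for the myeloid transcription factor PU.1, which reads TTCCTC on the other strand. Each is read 5′ to 3′ on the strand of its gene. They lie at chr2:79255176-79255425 on the plus strand (Itga4), chr8:128685404-128685653 on the plus strand (Itgb1), chr15:103366792-103367041 on the minus strand (Itga5) and chr7:128062390-128062639 on the plus strand (Itgam).
Itga4: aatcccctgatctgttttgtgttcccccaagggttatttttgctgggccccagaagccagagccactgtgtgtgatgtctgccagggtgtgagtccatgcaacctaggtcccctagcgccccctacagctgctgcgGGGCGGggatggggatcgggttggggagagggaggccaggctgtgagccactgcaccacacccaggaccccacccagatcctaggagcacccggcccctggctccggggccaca
Itgb1: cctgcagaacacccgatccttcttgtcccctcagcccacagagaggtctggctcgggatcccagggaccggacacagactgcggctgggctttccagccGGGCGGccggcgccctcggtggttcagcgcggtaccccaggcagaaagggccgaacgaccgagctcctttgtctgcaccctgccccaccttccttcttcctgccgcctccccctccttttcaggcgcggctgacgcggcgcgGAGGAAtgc
Itga5: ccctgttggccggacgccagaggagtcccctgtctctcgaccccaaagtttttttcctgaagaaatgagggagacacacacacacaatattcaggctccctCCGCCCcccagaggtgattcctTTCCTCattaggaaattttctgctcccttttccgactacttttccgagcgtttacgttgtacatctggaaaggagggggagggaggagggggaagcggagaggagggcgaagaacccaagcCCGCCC
Itgam: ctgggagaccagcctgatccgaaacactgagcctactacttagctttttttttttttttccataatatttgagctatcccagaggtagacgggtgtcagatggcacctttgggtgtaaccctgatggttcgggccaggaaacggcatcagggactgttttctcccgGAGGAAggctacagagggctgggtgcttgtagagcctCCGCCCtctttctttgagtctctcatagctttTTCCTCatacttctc

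Of the 32851 promoter entries in that table, read over the same 250 bases, 32.7% held GGGCGG and 23.3% held GAGGAA. The Itga4 stretch held 1 GC box and no GAGGAA, that of Itgb1 held 1 of each, that of Itga5 held 2 GC boxes and 1 GAGGAA, and that of Itgam held 1 GC box and 2 GAGGAA. The 2 motifs share no base where they were found. CCAAT and TATAAA, which 33.8% and 12.4% of the entries held, were in 0 of these 4 stretches. G and C made up 64.0% of the stretch of Itga4, 68.0% of that of Itgb1, 55.6% of that of Itga5 and 49.6% of that of Itgam, beside a median of 52.4% over all entries.

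No subunit was called between calcium-high and calcium-low HSCs in the main test over all 14 libraries, although fits on recovered reads, given further on, called some. The main test was limma on log2(RPKM + 1), with p-values adjusted by Benjamini-Hochberg over the 9921 tested genes and a threshold of 0.05. It called 0 of 10 subunits, against 0.0% of all tested genes. With the replicate number as a block it again called 0 of 10, against 0.917% of all genes. At an unadjusted p under 0.05 there was 1 subunit without the block (Itgam), against 6.74% of all genes, and 2 with it (Itgal and Itgam), against 13.9%. The calcium-high values overlapped the calcium-low values for each of the 10, where 0.0302% of all genes were higher and 0.111% lower without overlap. The median difference of the 10 was -0.02 on the log2 scale, beside -0.03 over all tested genes, with 5 positive and 5 negative. In such bulk libraries fewer cells of a type and less RNA per cell cannot be told apart.

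**Figure D2:**
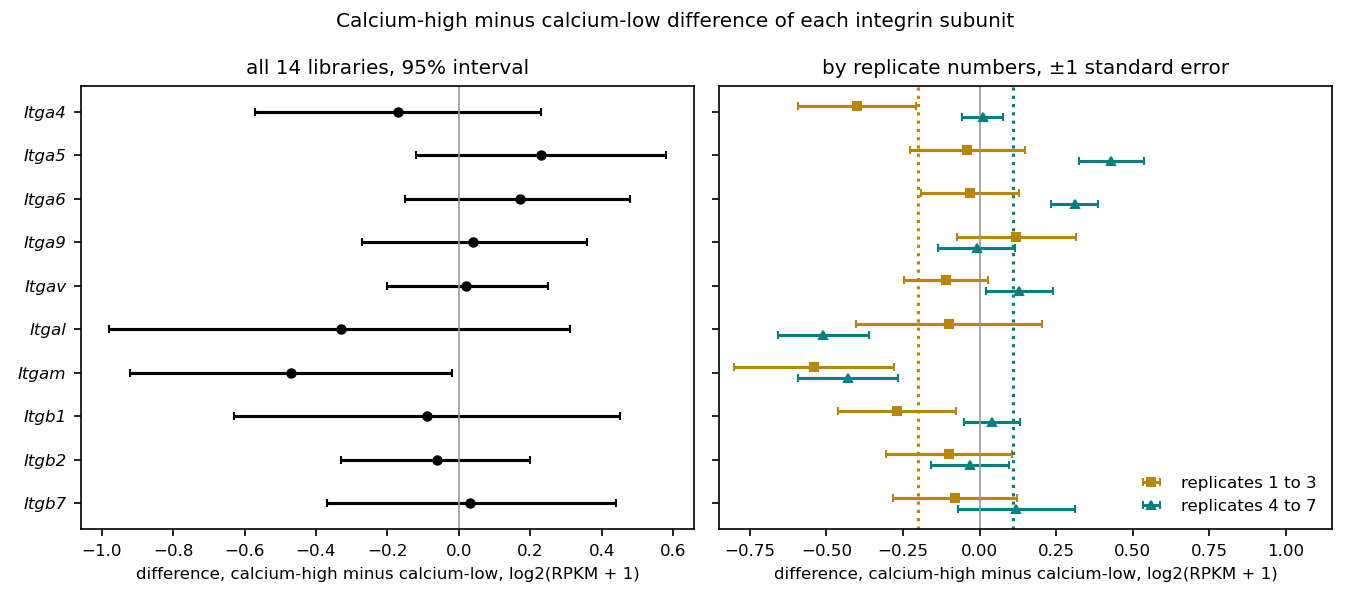
Difference in log2(RPKM + 1), calcium-high minus calcium-low (x axis), of each integrin subunit (y axis), left over all 14 libraries with the 95% interval and right within replicates 1 to 3 (squares) and replicates 4 to 7 (triangles) with 1 standard error each side; dotted lines mark the median of all tested genes in each set, -0.20 and 0.11. Over all libraries the interval of Itgam, -0.92 to -0.02, lies below 0, and those of the other 9 cross it.

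Itga4, the alpha chain of VLA-4 and of the MAdCAM-1 receptor, lies on chromosome 2 (79255426 to 79333123, plus strand, GRCm38, as do all gene positions here). Exons of Cerkl on the opposite strand overlap its exons, and whether the counting used strand is not given in the sources used here; Cerkl was listed at 0.134 to 0.778 RPKM. Itga4 ran from 7.64 over a median of 8.18 to 13.7 RPKM in calcium-high libraries and from 7.67 over 8.06 to 16.7 in calcium-low ones. The highest values of both groups came from replicates 1 to 3, and 9.96 to 16.7 RPKM there did not overlap 7.64 to 8.18 in replicates 4 to 7. The calcium means were 9.33 ± 2.18 and 11 ± 4.12 RPKM (SD, n = 7 each), and the difference of -0.17 (SE 0.190, 95% interval -0.57 to 0.23) had an adjusted p of 0.991 in limma. Within replicates 4 to 7 the groups lay together, at 7.91 ± 0.220 and 7.87 ± 0.179 RPKM (n = 4 each). Within replicates 1 to 3 they were at 11.2 ± 2.18 and 15.1 ± 2.59 RPKM (n = 3 each), a difference of -0.40 with an adjusted p of 0.421 in limma, where the median of all genes was -0.20. With median-of-ratios scaling the difference was -0.18 in replicates 1 to 3 (adjusted p 0.948 in limma) and -0.14 in replicates 4 to 7 (adjusted p 0.230), close to each other.

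Itga5, the alpha chain of the fibronectin receptor VLA-5, lies on chromosome 15 (103344286 to 103366763, minus strand). It ran from 3.97 over a median of 7.99 to 10.7 RPKM in calcium-high libraries and from 4.97 over 6.05 to 7.25 in calcium-low ones. The calcium-high library was the higher of 6 of 7 pairs, and replicate 3 was the exception with 3.97 against 5.66 RPKM. The means were 7.62 ± 2.43 and 6.13 ± 0.765 RPKM (n = 7 each), and the difference of 0.23 (SE 0.165, interval -0.12 to 0.58) had an adjusted p of 0.928 in limma. The gap was wider in the deeper libraries: in replicates 4 to 7 the calcium-high values were 7.99, 8.08, 10.7 and 10.3 RPKM and the calcium-low values 6.92, 6.20, 7.25 and 6.05, with no overlap.

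Itga6, the laminin-binding alpha chain that is also used as a stem cell surface marker (CD49f), lies on chromosome 2 (71745616 to 71858416, plus strand). It ran from 9.75 over 11.1 to 14.1 RPKM in calcium-high and from 7.69 over 8.41 to 14.6 in calcium-low libraries. Its means were 11.5 ± 1.76 and 10.3 ± 2.84 RPKM (n = 7 each), a difference of 0.17 (SE 0.149, interval -0.15 to 0.48) with an adjusted p of 0.974 in limma. As for Itga5, the groups did not overlap in replicates 4 to 7 and overlapped in replicates 1 to 3. The calcium-high values of replicates 4 to 7 were 9.75, 9.84, 10.3 and 11.7 RPKM, all above the calcium-low values of 8.41, 8.23, 8.26 and 7.69.

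Within replicates 4 to 7 alone, 2 of 10 subunits, Itga5 and Itga6, passed the limma test as higher in calcium-high HSCs, beside 6.36% of all tested genes called higher and 8.14% in either direction. Itga5 was at 9.26 ± 1.43 against 6.60 ± 0.572 RPKM (n = 4 each), a difference of 0.43 (SE 0.106, adjusted p 0.0344). Itga6 was at 10.4 ± 0.884 against 8.15 ± 0.314 RPKM (n = 4 each), a difference of 0.31 (SE 0.0780, adjusted p 0.0338). Both calls depended on the scaling of the libraries. The median of all tested genes in these 8 libraries was 0.11, and with median-of-ratios scaling, which moved it to -0.02, Itga5 was at 0.28 (adjusted p 0.165) and Itga6 at 0.16 (adjusted p 0.264) in limma. With the replicate block on the values as deposited, Itga5 was called (adjusted p 0.0373) and Itga6 was not (adjusted p 0.0676). In replicates 1 to 3 alone 0 of 10 subunits and 0.0% of all genes were called, and 0 of 10 against 11.6% had an unadjusted p under 0.05, with Itga5 at -0.04 and Itga6 at -0.03. With median-of-ratios scaling the values in replicates 1 to 3 were 0.16 for Itga5 (adjusted p 0.948 in limma) and 0.19 for Itga6 (adjusted p 0.944), so both signs turned and Itga6 had nearly the same difference in both sets. The difference between the sets itself was 0.46 for Itga5, 0.34 for Itga6 and 0.40 for Itga4, beside a median of 0.31 over all genes; the unadjusted p was 0.0411, 0.0419 and 0.0395, under 0.05 for these 3 of 10 and for 28.6% of all genes, and the adjusted p 0.164, 0.164 and 0.161 in limma, so 0 of 10 passed, against 0.0% of all genes, on values as deposited.

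Itgav, which pairs with several beta chains to bind RGD-containing matrix proteins, lies on chromosome 2 (83724397 to 83806916, plus strand) and shares exonic sequence with Gm13684 on the opposite strand. It had nearly the same level in both groups, from 2.03 over 2.27 to 2.82 RPKM in calcium-high and from 1.67 over 2.34 to 2.99 in calcium-low libraries. The difference of 0.02 had the narrowest interval of the 10 subunits, -0.20 to 0.25, with an adjusted p of 0.998 in limma. Itga9, the alpha chain of the tenascin and osteopontin receptor alpha9 beta1, lies on chromosome 9 (118606690 to 118901003, plus strand). It ran from 0.690 over 1.11 to 1.51 RPKM in calcium-high and from 0.559 over 1.10 to 1.74 in calcium-low libraries, on 64 to 432 reads per library. Its difference was 0.04 (interval -0.27 to 0.36, adjusted p 0.998 in limma).

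Mac-1's alpha chain Itgam lies on chromosome 7 (128062640 to 128118491, plus strand); exons of Gm49368 on the same strand overlap its exons, so reads there could belong to either. Its level was lower in calcium-high libraries pair by pair, without passing the test across all genes. The calcium-high values were 0.485, 0.239, 1.32, 1.35, 2.10, 2.24 and 0.927 RPKM for replicates 1 to 7 and the calcium-low values 1.06, 1.29, 1.77, 2.04, 2.61, 2.32 and 3.09. The calcium-high library was the lower of all 7 pairs, as it was for 3.02% of all tested genes, although the groups overlapped. The means were 1.24 ± 0.757 and 2.03 ± 0.717 RPKM (n = 7 each), on 16 to 537 reads per library. The difference of -0.47 (SE 0.213, interval -0.92 to -0.02) had an unadjusted p of 0.0400 and an adjusted p of 0.734 in limma, and an adjusted p of 0.116 with the replicate block.

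Itgal, the alpha chain of LFA-1, also on chromosome 7 (127296260 to 127335138, plus strand), ran from 0.349 over 1.95 to 3.12 RPKM in calcium-high and from 0.689 over 3.32 to 3.89 in calcium-low libraries. The calcium-high library was the lower of 6 of 7 pairs, replicate 3 being the exception with 1.95 against 1.14 RPKM. The means were 1.74 ± 1.06 and 2.50 ± 1.47 RPKM (n = 7 each), on 27 to 713 reads, and the difference of -0.33 (SE 0.304, interval -0.98 to 0.31) had an adjusted p of 0.974 in limma. In replicates 4 to 7 all calcium-high values, 2.67, 3.12, 2.21 and 1.38 RPKM, lay below the calcium-low values, 3.74, 3.71, 3.89 and 3.32. The limma difference there was -0.51 with an adjusted p of 0.0592, called with the replicate block (adjusted p 0.0431) and with median-of-ratios scaling (-0.63, adjusted p 0.0222). Itgal was then 1 of 10 subunits called lower with that scaling, beside 4.63% of all genes called lower and 7.02% in either direction, and with Itga5 1 of 2 called in either direction with the block, beside 6.61%. Itga5, Itga6 and Itgal were the 3 subunits whose groups did not overlap in replicates 4 to 7, as was so for 16.9% of all genes (13.8% higher and 3.1% lower), and 0 subunits did so in replicates 1 to 3, against 20.3% of all genes.

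Which of these subunits passed differed between the fits. With limma-voom on whole reads recovered from the RPKM values, and library quality weights, 1 of 10 was called, Itga5 as higher (0.45, adjusted p 0.0488), beside 5.51% of all genes called higher and 7.62% in either direction. With the replicate block added to that fit 2 of 10 were called, Itgal (-0.60, adjusted p 0.0188) and Itgam (-0.78, adjusted p 0.0255) as lower, beside 2.78% of all genes called lower and 6.69% in either direction, and Itga5 was not (0.32, adjusted p 0.0881). Leaving out replicate 3 of both groups, which includes the library with the neutrophil transcripts, the blocked limma fit called 1 of 10, Itgal as lower (-0.47, adjusted p 0.0360), beside 1.39% of all genes called lower and 3.04% in either direction. These fits gave Itgal and Itgam a negative difference and Itga5 a positive one in each case.

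Markers of other cell types differed between the libraries. The summed level of 14 T, natural killer and innate lymphoid cell markers was 6.44 to 22.2 RPKM in calcium-high libraries (median 13) and 13.1 to 35.2 in calcium-low ones (median 23.7). Most of that sum was Nkg7, a granule protein gene of cytotoxic cells, at 3.38 to 18.1 and 11.4 to 33.0 RPKM, while 5 of the 14 markers were at 0 everywhere. Klrb1c, a natural killer cell receptor of the same list, went the other way in 7 of 7 pairs, at 0.461 to 1.70 RPKM in calcium-high and 0 to 0.490 in calcium-low libraries. The part of such cells in the Itgal difference was not tested. Calcium-low replicate 3, with 392 RPKM of S100a8 and 223 of S100a9, had 1.77 RPKM of Itgam and 5.31 of Itgb2, and without it the Itgam difference was -0.49 (adjusted p 0.724 in limma).

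Itgb2, the beta chain of LFA-1 and Mac-1, lies on chromosome 10 (77530252 to 77565708, plus strand). It ran from 3.33 over 3.90 to 5.72 RPKM in calcium-high and from 3.52 over 4.28 to 5.44 in calcium-low libraries. The means of 4.31 ± 1.01 and 4.50 ± 0.670 RPKM (n = 7 each) differed by -0.06 (SE 0.125, interval -0.33 to 0.20, adjusted p 0.997 in limma). Its partner chains Itgal and Itgam had the differences of -0.33 and -0.47 given above. Itgb7, the beta chain of the MAdCAM-1 receptor of gut-homing lymphocytes, lies on chromosome 15 (102215995 to 102231944, minus strand). It ran from 0.859 over 1.29 to 3.35 RPKM in calcium-high and from 0.845 over 1.75 to 2.08 in calcium-low libraries, a difference of 0.03 (interval -0.37 to 0.44, adjusted p 0.998 in limma).

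The highest Itgb7 values, 3.35 and 2.83 RPKM, belonged to calcium-high replicates 5 and 6, the libraries with the monocyte transcripts. In those 2 libraries Lyz2 was at 147 and 140 RPKM (41.7 to 77.3 elsewhere), Ly6c2 at 30.1 and 8.87 (0 to 3.72 elsewhere) and F13a1 at 6.13 and 3.16 (0 to 0.0903 elsewhere). They also had the highest calcium-high values of Itgam, 2.10 and 2.24 RPKM, and Itgb2 at 4.84 and 5.72, while calcium-high replicate 3 had Itgb2 at 5.44 with the lowest monocyte marker sum of the 14 libraries, 43.9. Without replicates 5 and 6 of both groups, Itgb7 was at 1.17 ± 0.229 against 1.44 ± 0.526 RPKM (n = 5 each) and its difference turned to -0.15, with an adjusted p of 0.885 in limma. Itgam was then at 0.866 ± 0.497 against 1.85 ± 0.791 RPKM (n = 5 each), a difference of -0.61 with an adjusted p of 0.821, and Itgb2 at 3.92 ± 0.878 against 4.60 ± 0.792, a difference of -0.19 with an adjusted p of 0.834. The median of all genes was -0.10 in that fit. The part of monocyte transcripts in the Itgb7 and Itgb2 levels was not tested otherwise.

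Itgb1, the beta chain that Itga4, Itga5, Itga6, Itga9 and Itgav can pair with, lies on chromosome 8 (128685654 to 128733200, plus strand). It ran from 7.94 over 10.5 to 20.0 RPKM in calcium-high and from 7.86 over 8.98 to 21.9 in calcium-low libraries. The means of 12.1 ± 4.50 and 13.4 ± 6.29 RPKM (n = 7 each) differed by -0.09 (SE 0.256, interval -0.63 to 0.45, adjusted p 0.998 in limma). The calcium-high library was the lower of 6 of 7 pairs, and pair 6 was the exception with 10.5 against 7.86 RPKM. Its spread was mostly between library sets: replicates 1 to 3 were at 13.9 to 21.9 RPKM and replicates 4 to 7 at 7.86 to 10.5, with no overlap, as seen for Itga4.

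The library sets differed in most of the subunits. With the calcium group as a term, limma called 8 of 10 subunits between the sets, beside 48.8% of all tested genes, whose median difference was 0.02. The VLA-4 chains and Itga6 were lower in replicates 4 to 7: Itgb1 at -0.96 (adjusted p 8e-06), Itga4 at -0.64 (adjusted p 0.000163) and Itga6 at -0.46 (adjusted p 0.000761). The other 5 called were higher there, Itgal at 1.06 (adjusted p 0.000140), Itgam at 0.62 (adjusted p 0.00329), Itgb7 at 0.52 (adjusted p 0.00865), Itga5 at 0.46 (adjusted p 0.00493) and Itga9 at 0.38 (adjusted p 0.0101). The directions were thus split, with 3 lower beside 23.8% of all genes and 5 higher beside 25.0%. Itgav (-0.19, adjusted p 0.0900) and Itgb2 (0.10, adjusted p 0.497) were not called. The sets did not overlap for 2 of 10 subunits, Itga4 and Itgb1, as for 17.1% of all genes. Replicate 3, with 0 to 4 Y-linked reads, had Itga4 at 13.7 and 16.4 RPKM and Itgb1 at 20.0 and 21.9, with replicates 1 and 2 and above replicates 4 to 7. Itgal and Itgam differed: calcium-high replicate 3, at 1.95 and 1.32 RPKM, lay among calcium-high replicates 4 to 7. Calcium-high replicates 1 and 2 had Itgal at 0.485 and 0.349 and Itgam at 0.485 and 0.239 RPKM. Calcium-low replicate 3, at 1.14 and 1.77 RPKM, lay below calcium-low replicates 4 to 7. Any part of donor sex in these levels was not tested. Depth differed between the sets as given above, and depth and any other property shared by a whole set cannot be told apart.

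Shares of the summed RPKM of the 7 alpha chains remove the scaling of a library. By this measure Itga6 had a higher and Itga4 a lower share in calcium-high than in calcium-low libraries. These shares are descriptions with no test. Itga2b, an alpha chain with a higher mean than any of the 7, 12.5 RPKM over the 14 libraries, is not in the sum. Itga6 made up 33.1 ± 5.56% of the 7-chain sum in calcium-high and 28.9 ± 5.0% in calcium-low libraries (n = 7 each). Its share was higher in the calcium-high library of 7 of 7 pairs. Itga4 made up 26.8 ± 6.20% and 30.3 ± 7.49%, with the lower share in the calcium-high library of 7 of 7 pairs. Itga5 made up 21.8 ± 6.41% and 17.7 ± 3.72%, higher in 6 of 7 pairs. The leukocyte chains went the other way: Itgam made up 3.54 ± 2.14% and 6.00 ± 2.63%, lower in 7 of 7 pairs, and Itgal 5.0 ± 3.12% and 7.55 ± 4.84%, lower in 6 of 7. Itgav, at 6.66 ± 0.754% and 6.44 ± 0.742%, and Itga9, at 3.16 ± 0.983% and 3.09 ± 1.41%, had like shares in both groups. The summed level of the 7 was 34.8 ± 1.54 RPKM in calcium-high and 35.3 ± 4.58 in calcium-low libraries.

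**Figure D3:**
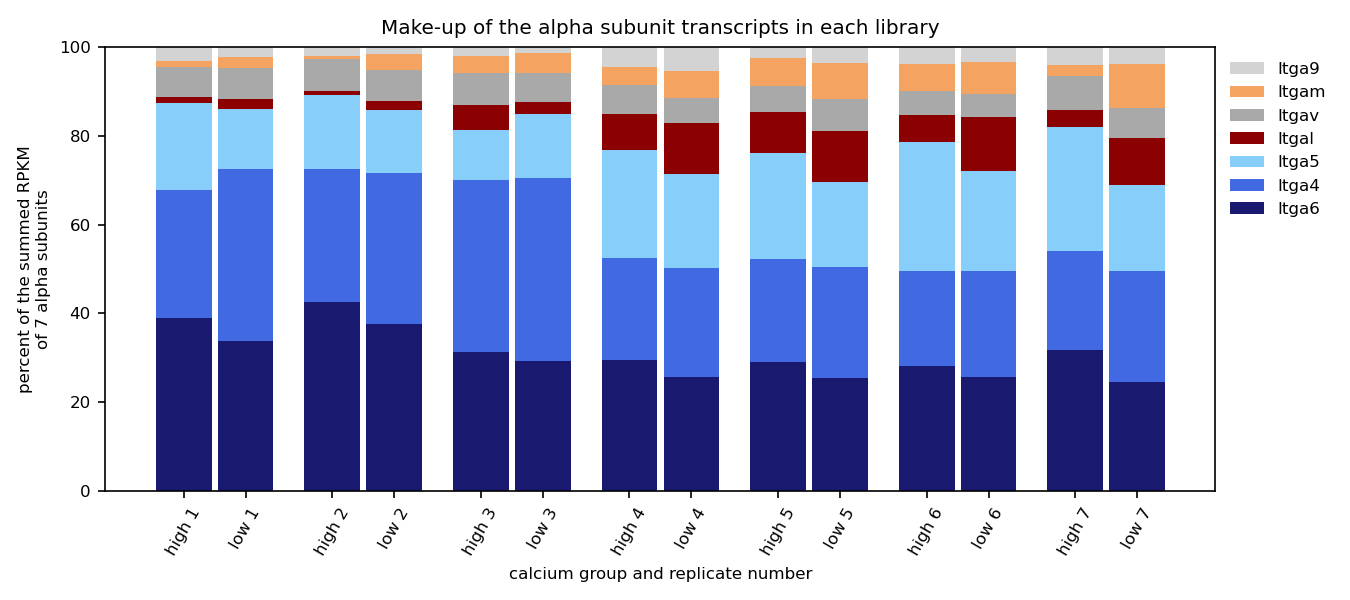
Share of each alpha chain in the summed RPKM of the 7 alpha chains (y axis, percent, stacked) for each library (x axis, calcium-high beside calcium-low by replicate number). The Itga6 segment is larger in the calcium-high library of all 7 pairs and the Itgam segment is smaller.

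The ratio of Itga6 to Itga4 was 1.36, 1.42, 0.812, 1.28, 1.24, 1.31 and 1.43 in calcium-high replicates 1 to 7 and 0.879, 1.10, 0.712, 1.05, 1.02, 1.08 and 0.989 in calcium-low ones. It was 1.26 ± 0.211 against 0.975 ± 0.137 (n = 7 each), and in replicates 4 to 7 the groups did not overlap. This ratio was chosen after the values of the 10 subunits were seen and has no test. Among the 3 beta chains, Itgb1 made up 65.6 ± 10.9% in calcium-high and 66.1 ± 11.4% in calcium-low libraries, and its share was higher in the calcium-high library of 2 of 7 pairs.

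Of the 17 other integrin subunit genes, 2 passed the filter, both of the platelet integrin: Itga2b (CD41) and Itgb3. Limma called 0 of the 2 without or with the block. Itgb3, the beta chain of the platelet fibrinogen receptor and of the vitronectin receptor with Itgav, ran from 5.20 over 6.80 to 10.4 RPKM in calcium-high and from 2.60 over 4.45 to 6.68 in calcium-low libraries. It was the higher in the calcium-high library of 7 of 7 pairs, as was so for 2.49% of all genes. The means were 7.43 ± 1.81 and 4.43 ± 1.55 RPKM (n = 7 each), and the difference of 0.66 (SE 0.178, interval 0.28 to 1.03) had an adjusted p of 0.254 in limma and 0.0544 with the block. With limma-voom on the recovered reads it was called (1.01, adjusted p 0.00122), and likewise with the library set as a term (adjusted p 0.0433). The summed level of 12 other megakaryocyte and platelet markers was 75.9 to 180.0 RPKM in calcium-high (median 139.0) and 76.4 to 101.0 in calcium-low libraries (median 93.5), higher in 6 of 7 pairs, and its part in the Itgb3 difference was not tested. Itga2b, the partner of Itgb3, was at 11.5 ± 3.68 against 13.5 ± 2.67 RPKM, a difference of -0.25 (interval -0.62 to 0.13, adjusted p 0.928 in limma). The other 15, among them Itga2, Itga3 and Itgb5, had means of at most 0.753 RPKM and were not tested.

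Ligands and counter-receptors of integrins, 13 of 31 listed genes tested, had 0 calls without the block, where Jam3 and Lama5 had an unadjusted p under 0.05 (6.74% of all genes did), and 1 with it (0.917% of all genes). The call was Jam3, a junctional adhesion molecule that Mac-1 binds, called as higher in calcium-high HSCs. Jam3 was at 3.43, 2.38, 1.81, 3.13, 2.99, 3.49 and 2.85 RPKM in calcium-high replicates 1 to 7 and at 1.71, 2.39, 0.662, 1.36, 1.40, 1.04 and 1.53 in calcium-low ones. It was higher in 6 of 7 pairs, with pair 2 at 2.38 against 2.39 RPKM, and the difference of 0.68 (SE 0.148) had an adjusted p of 0.125 in limma and 0.0337 with the block. The blocked call was kept without pair 2 or pair 3 and lost on leaving out any of the other 5 (adjusted p 0.0644 to 0.150). With limma-voom and the block Jam3 was called (1.0, adjusted p 0.00285), beside 6.69% of all genes. Limma also called it in replicates 4 to 7 alone (0.82, adjusted p 0.000796), beside 8.14% of all genes. In replicates 1 to 3 alone it was not called (0.49, adjusted p 0.438 in limma), where 0.0% of all genes were. The median difference of the 13 ligand genes was 0.03, beside -0.03 over all genes.

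Genes of inside-out activation, the talin, kindlin and Rap1 route that opens integrins for binding, and their inhibitors had 27 of 34 tested and 0 calls without or with the block, with a median of -0.06, 7 positive and 20 negative. The 3 with the smallest p were Cytip, Vav3 (label Vav3_1) and Cyth1. Cytip, which binds cytohesin-1 and restrains LFA-1 adhesion, ran from 3.33 over 4.28 to 9.35 RPKM in calcium-high and from 4.78 over 6.18 to 9.53 in calcium-low libraries. It was lower in the calcium-high library of 7 of 7 pairs, as were 3.02% of all genes. Its difference was -0.39, with an adjusted p of 0.734 in limma, or 0.0772 with the block. With limma-voom on the recovered reads Cytip was called (-0.63, adjusted p 0.00247), beside 7.62% of all genes in either direction. Limma also called it in replicates 4 to 7 alone (-0.52, adjusted p 0.00678), beside 8.14% of all genes, and not in replicates 1 to 3 (-0.20, adjusted p 0.783). Cytip was the 1 gene of the list with an unadjusted p under 0.05 in limma without the block, where 6.74% of all genes had such a p. Cyth1, cytohesin-1 itself, was at 2.74 ± 0.463 against 3.42 ± 0.706 RPKM (-0.23, adjusted p 0.816 in limma), and Vav3 at 3.44 ± 0.643 against 4.34 ± 0.999 (-0.26, adjusted p 0.809).

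Adaptors and kinases of the adhesion complex had 31 of 41 tested, with a median of -0.02 and 13 positive and 18 negative. Without the block 0 were called and 5 had an unadjusted p under 0.05, namely Tns2, Ptk2b, Ptk2 and Src with positive and Tes with a negative difference. These were named after their values were seen, and 6.74% of all genes had such a p. With the block 1 was called, beside 0.917% of all genes: Tns2, tensin 2, which links the tails of beta chains to actin, was higher in calcium-high HSCs. Tns2 was at 0.572 to 8.05 RPKM (median 4.96) in calcium-high and 0.471 to 1.93 (median 1.12) in calcium-low libraries, and both lowest values came from replicate 3. Its difference was 1.35 (SE 0.294), with an adjusted p in limma of 0.125 without and 0.0272 with the block. Tns2 was higher in 7 of 7 pairs, as were 2.49% of all genes. The blocked call was kept without pair 3 and lost on leaving out any of the other 6 pairs (adjusted p 0.0519 to 0.149 in limma). With limma-voom and the block Tns2 was called (2.38, adjusted p 9.76e-06), beside 6.69% of all genes. Limma also called it in replicates 4 to 7 alone (1.86, adjusted p 0.000159), beside 8.14% of all genes. In replicates 1 to 3 alone it was not called (0.69, adjusted p 0.508 in limma), where 0.0% of all genes were.

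Other adhesion receptors, 15 of 23 tested, had a median of -0.08 with 6 positive and 9 negative, 0 calls without the block (6 at an unadjusted p under 0.05, where 6.74% of all genes were) and 1 with it (0.917% of all genes). The call was Cd34, a sialomucin of blood progenitors that selectins can bind, called as lower in calcium-high HSCs. Cd34 was at 14.1, 15.1, 21.2, 30.9, 31.7, 22.6 and 22.9 RPKM in calcium-high replicates 1 to 7 and at 42.0, 33.9, 23.2, 56.6, 51.1, 49.4 and 58.4 in calcium-low ones. It was lower in 7 of 7 pairs, as were 3.02% of all genes. The Cd34 difference of -0.96 (SE 0.217) had an adjusted p of 0.138 in limma and 0.0272 with the block. With the block it was called without pair 3 or pair 5 and lost on leaving out any of the other 5 pairs (adjusted p 0.0571 to 0.149). Without the block it was called on leaving out calcium-low replicate 3 (-1.10, adjusted p 0.0347 in limma). With limma-voom and the block Cd34 was called (-1.0, adjusted p 1.99e-05), beside 6.69% of all genes. Limma also called it in replicates 4 to 7 alone (-0.99, adjusted p 0.000796), beside 8.14% of all genes. In replicates 1 to 3 alone it was not called (-0.92, adjusted p 0.421 in limma), where 0.0% of all genes were.

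**Figure D4:**
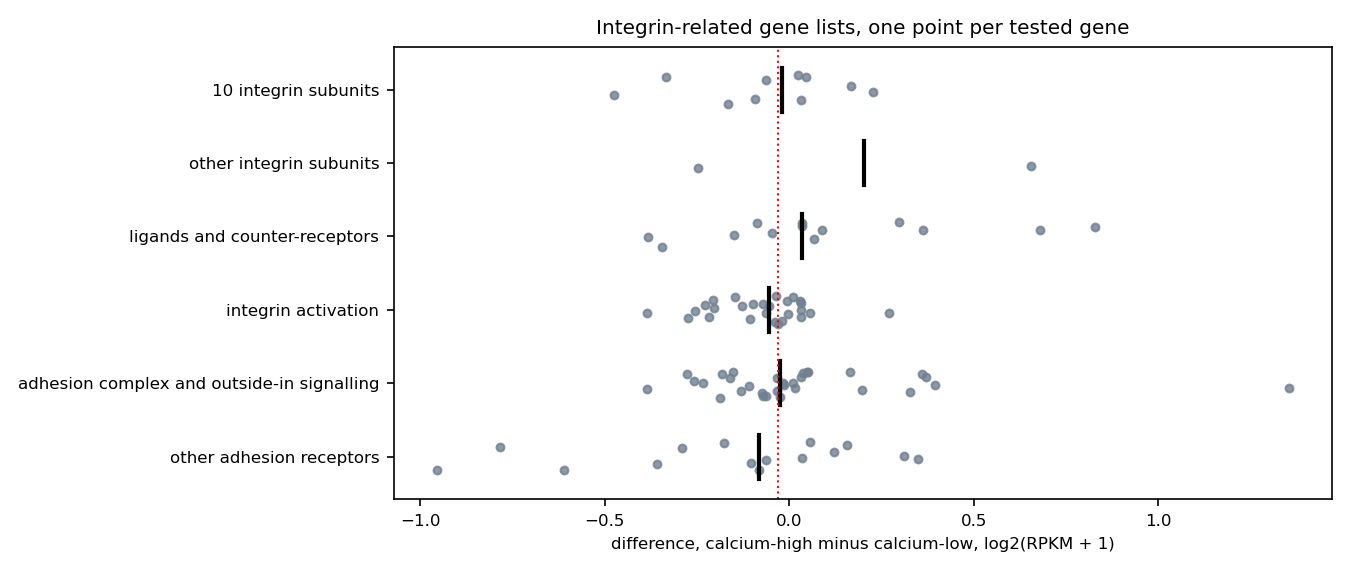
Difference in log2(RPKM + 1), calcium-high minus calcium-low over all 14 libraries (x axis), of each tested gene (points, spread vertically for sight only) in the 10 integrin subunits and 5 related lists (y axis); black bars mark list medians and the red dotted line the median of all tested genes, -0.03. The medians of the 10 subunits and of the 4 larger lists lie between -0.08 and 0.03, and Tns2 (1.35) and Cd34 (-0.96) are the outermost points.

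The genes whose levels ran most like those of Itgam, the subunit with the smallest p, were Tmem98, Cacybp and Capn1. Their Pearson correlations of log2(RPKM + 1) with Itgam over the 14 libraries were 0.907, 0.901 and 0.897. The libraries share the difference between library sets and in depth, which enters these values.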

How the data were processed

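Each library of 100 sorted cells was converted to cDNA with not-so-random primers and a Klenow second strand, made into a Nextera XT library and sequenced on a NextSeq system, per the labels' protocols. The authors deposited RPKM values, 1 file per library; the header names no unit, and RPKM was read from the values. The submitters' processing notes name edgeR and the builds GRCm38 and mm10 but give neither their role nor a version; the aligner, counter and annotation are not given in the sources used here. Each file listed 48737 labels; 23 that had become numbers were left out and 48714 joined.

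From these, limma 3.58.1 (R 4.3.3, mean-variance trend) was fitted to log2(RPKM + 1) over the 9921 genes that averaged at least 1 RPKM in the 14 libraries, with Benjamini-Hochberg adjustment at 0.05. The pseudocount of 1 understates changes of low genes such as Itgam. The design allowed for read counts; as the unit was RPKM, its fallback was used. For each of the 9848 such genes above 0 everywhere, the 14 values were whole multiples of a common step within 0.02 reads (0 of 500 jittered genes were), so reads could be recovered for limma-voom. Intervals are 95%, and depth is given as a range for each library set.

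Libraries with the same number were correlated in their deviations from the group means at 0.384 to 0.715 in all 7 pairs. The rule was every pair above 0.1, so the numbers were taken to pair the samples. The labels state no shared animal or day, and the same-numbered library was the best match for only 2 of 7 calcium-high libraries. Each best match lay in the same library set. The difference between library sets was not removed from these deviations and enters the correlations. The rule thus cannot tell pairing by number from sharing a library set. The fit without the block is the main result; alternatives covered the block, scaling, pseudocount, filter, voom, library set, genes detected and leaving out libraries. Fits with the block in each set, without replicate 3, without replicates 5 and 6, voom with the block, and rescaled fits in each set were added after seeing the data.

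The 10 members, gene lists and markers were chosen with earlier results of these data known. Named genes were the members, other integrin subunits passing the filter, list genes called with or without the block (else the 3 smallest p) and the 3 genes most correlated with Itgam. Gene positions are from GENCODE M21, promoters from RefSeq. Only the limma fit without the block was tested on simulated data, which held no library sets or pairs. Python 3.11.15, numpy 2.4.6, pandas 2.3.3, scipy 1.17.1 and matplotlib 3.10.9 were used.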

Additional observations from a re-analysis of the deposited data

Results flagged for a closer look

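In 36 groups of 7 libraries (2 per gene, for the 10 subunits and 8 further named genes), 3 held a library whose gap to the nearest other, divided by the range, exceeded Dixon's 95% critical value; chance flags about 1 in 20 groups. Itga4 was at 13.7 RPKM in calcium-high replicate 3, where the other 6 libraries of the group were at 7.64 to 9.97. Cytip was at 9.35 RPKM in the same library against 3.33 to 4.64 in the others. Cyth1 was at 1.96 RPKM in calcium-low replicate 3 against 3.24 to 4.20. All 3 values belong to replicate 3, where the calcium-low library also held the neutrophil transcripts.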

How the results depend on the processing

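The count of all called genes, 0 over the 14 libraries, was 91 with the replicate block, 328 with the block plus rescaling by the median of ratios, 4 with that rescaling alone, 3 with upper-quartile scaling, 1 with no filter, 1 with a minimum mean of 5 RPKM, 51 with the library set as a term, 756 with voom and 664 with voom and the block. It was 119 without both libraries of replicate 3, 808 in replicates 4 to 7 alone (631 higher and 177 lower), 656 there with the block, 696 there with median-of-ratios scaling (237 higher and 459 lower), and 1 in replicates 1 to 3 with the block. Leaving out 1 library gave 0 to 101 calls, and leaving out 1 pair in the blocked fit 0 to 302 (12 without pair 5).

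Over all 9921 tested genes the share called was 0.917% with the limma block, 7.62% with voom and 6.69% with voom and the block. It was 8.14% in replicates 4 to 7 alone, 6.61% there with the block and 7.02% there with rescaling. Of the 10 integrin subunits, 1 was called with voom, 2 with voom and the block, 2 in replicates 4 to 7 alone, 2 there with the block and 1 there with rescaling. Without 1 library 0 were called, and without 1 pair in the blocked fit 0 to 1 (Itgal without pair 3). Of the 2 other integrin subunits tested, 1 was called (Itgb3) with the block and rescaling, with voom with or without the block, with the set as a term, in replicates 4 to 7 alone, there with the block and there with rescaling, and 0 to 1 without 1 pair. The lists of ligands, activation, adhesion complex and other receptors had 13, 27, 31 and 15 genes tested. In that order, calls numbered 1, 0, 1 and 1 with the block. With the block and rescaling they numbered 1, 0, 2 and 3, beside 328 of all 9921 genes. They numbered 3, 2, 8 and 4 with voom and 6, 3, 8 and 4 with voom and the block. They numbered 1, 0, 1 and 1 with the set as a term (51 of all 9921 genes) or without replicate 3 (119 of 9921). In replicates 4 to 7 alone they numbered 2, 1, 9 and 3, there with the block 2, 1, 7 and 3, and there with rescaling 2, 4, 6 and 3. Without 1 library they were 0 to 1, 0, 0 to 1 and 0 to 1, and without 1 pair in the blocked fit 0 to 1, 0 to 1, 0 to 3 and 0 to 2. In limma on log2 RPKM over all 14 libraries the block changed the call of no subunit.

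Differences changed sign, in subunits that were not called, as follows. In replicates 1 to 3 alone, with or without the block, Itga5 was at -0.04, Itga6 at -0.03, Itgav at -0.11 and Itgb7 at -0.08, and with rescaling Itgal was at 0.01 and Itgb2 at 0.09. In replicates 4 to 7 alone, with or without the block, Itga4 was at 0.01, Itga9 at -0.01 and Itgb1 at 0.04, and with rescaling Itga9 was at -0.11. With voom Itgb1 was at 0.04, with voom and the block Itga9 was at -0.01 and Itgb7 at -0.05, and Itgb7 was at -0.0037 without replicate 3 and at -0.15 without replicates 5 and 6. Leaving out 1 library moved Itga9 between -0.02 and 0.12, Itgav between -0.02 and 0.07, Itgb1 between -0.22 and 0.04 and Itgb7 between -0.09 and 0.11, and leaving out 1 pair moved Itgav between -0.02 and 0.08 (-0.00126 without pair 6) and Itgb7 between -0.05 and 0.11. Rescaling within a set returned the sign in replicates 1 to 3 of Itga5 (0.16), Itga6 (0.19), Itgav (0.06) and Itgb7 (0.04), and in replicates 4 to 7 of Itga4 (-0.14) and Itgb1 (-0.12). The cause of the sign changes was not tested. Itgam stayed negative and Itgb3 positive in every setting run. Summing over copies of a label gives no other value, since each member has 1 label. The 16 to 713 reads of Itgam and Itgal per library limit the precision of their values.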
